A study of Mus musculus with 6 samples.

Results

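The 42 genes described here are genes of ribosome building and of the nucleolus. They were chosen by symbol from the deposited table of 24594 genes, with earlier results of these data known. All 42 had a row and passed the filter on low counts. Expression was measured by RNA sequencing in organoids from mouse small intestine, which are cultured epithelial structures with crypt-like and villus-like regions. Per the labels, the organoids grew from single cells for 96 h and were then given 5 uM NIBR-LTSi or a matching amount of its solvent DMSO for 24 h, with 3 libraries in each group and no strain, age or genetic change stated. NIBR-LTSi blocks the kinases LATS1 and LATS2, through which the Hippo pathway restrains the co-activators YAP and TAZ. The summed level of 6 epithelial markers was 5932 to 6006 CPM in the controls and 6456 to 6900 CPM after treatment: Krt8 (1.38-fold) and Krt18 (1.55-fold) were higher, Vil1 was lower (0.763-fold), and Epcam, Cdh1 and Cdx2 were not called. Markers of other cell types were low, with Dcn, Lum, Cdh5, Kdr, Emcn and Cd3e at 0 counts in all 6 libraries. The summed level was at most 0.189 CPM in any library for 6 fibroblast markers and at most 0.614 CPM for 4 endothelial markers (all of it Pecam1, at 5 to 15 counts). The immune markers Cd68 and Csf1r were at 1.64 and 1.72 CPM in the controls and at 1.55 and 2.23 CPM after treatment, and Ptprc and Cd79a were below the filter.

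Ribosomes are assembled in the nucleolus around a long precursor RNA made by RNA polymerase I. Small nucleolar ribonucleoproteins (snoRNPs, particles of a guide RNA and proteins) methylate and pseudouridylate that precursor, the small-subunit processome folds and cuts it, and separate sets of assembly factors carry the small and the large subunit through maturation to export. In the intestine this machinery is most active in the dividing cells of the crypt, and many of its genes are known targets of the transcription factor MYC.

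With NIBR-LTSi, 39 of the 42 genes rose and 3 were not called, with no fall, against 22.8% of all 12592 tested genes called higher and 19.2% called lower (edgeR quasi-likelihood test, Benjamini-Hochberg adjusted p under 0.05). DESeq2 called 34 of the 42 higher and none lower. As the 42 were chosen with earlier results of these data known, these counts are a description only. All rises were below 2-fold. The median over the 42 was a log2 fold change of 0.38, or 1.30-fold, beside 0.02 for all tested genes, and the highest was Gar1 at 1.65-fold and the lowest Bop1 at 1.004-fold. Only 4 genes passed 1.5-fold, and 30 lay between 1.2-fold and 1.5-fold. Together the 42 genes took 0.193% to 0.198% of all counts in the DMSO libraries and 0.264% to 0.267% in the NIBR-LTSi libraries. In the same 39 genes every NIBR-LTSi library lay above every DMSO library, which held for 28% of all tested genes. Since RNA was taken from whole organoids, more cells of a type and more RNA per cell cannot be told apart.

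**Figure D1:**
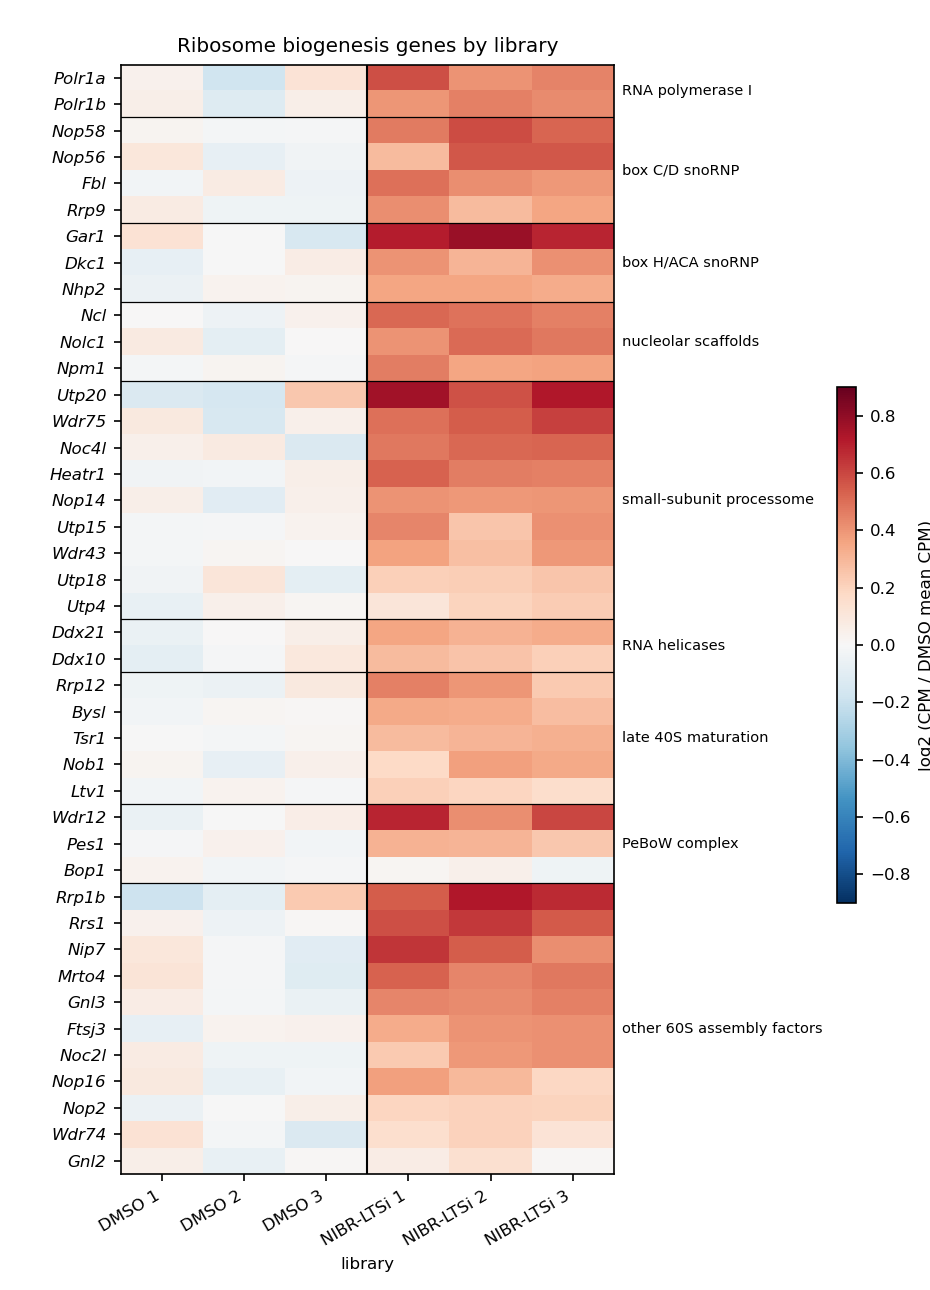
Level of each of the 42 genes (rows, grouped by role) in each of the 6 libraries (columns), as log2 of the TMM-normalised CPM over the mean of the 3 DMSO libraries, red for higher and blue for lower. The 3 NIBR-LTSi columns are red in nearly every row, with the palest rows at Bop1, Gnl2 and Wdr74.

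Total counts per library ranged from 18395427 to 26767043. Levels are CPM (counts scaled to a common library size after TMM normalisation), given as mean ± SD over 3 libraries, and log2 fold changes (NIBR-LTSi over DMSO) carry a standard error, SE. All adjusted p-values below are from the edgeR quasi-likelihood test, two-sided and adjusted over all tested genes. Among principal components, the first (51.3% of the variance) set treated apart from control libraries and the second (31.2%) ran within groups, with NIBR-LTSi replicate 1 at an end of it. The median over the 42 genes was 1.32-fold, 1.31-fold and 1.33-fold of the DMSO mean in NIBR-LTSi replicates 1, 2 and 3, and without NIBR-LTSi replicate 1 the count of genes higher was again 39.

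RNA polymerase I is represented by its catalytic subunits. Polr1b (chromosome 2, 129100970 to 129128060) was at 20.9, 18.5 and 20.9 CPM with DMSO and at 26.5, 27.5 and 27.0 CPM with NIBR-LTSi. The groups did not overlap, and the log2 fold change was 0.42 ± 0.07 (SE; adjusted p = 3.01e-04). Polr1a, the largest subunit, rose from 21.2 ± 2.2 to 29.5 ± 2.0 CPM. Of the remaining polymerase I machinery, a list of 19 genes that includes some with Polr2 symbols, 18 were tested. Among them 3 were higher (16.7%), none lower and 15 not called, beside 22.8% of all tested genes higher and 19.2% lower. The median log2 fold change of the list was 0.08. The 3 were Tcof1, whose product treacle couples polymerase I to rRNA modification (29.1 ± 1.1 to 45.7 ± 2.1 CPM, 1.57-fold), the subunit gene Polr1f (1.18-fold) and the initiation factor gene Rrn3 (1.13-fold). Of these, only Tcof1 was called by DESeq2, and the Rrn3 call was also lost when any library but DMSO replicate 2 or NIBR-LTSi replicate 2 was left out; the list had from 2 to 5 genes higher over these omissions and 5 with library totals only. Ubtf, which packages active ribosomal DNA, had 111 CPM in the controls and 113 after treatment (adjusted p = 0.842), and was named after its value was seen.

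The box C/D snoRNPs place methyl groups on ribosomal RNA. All 4 of their genes rose. Nop58 (chromosome 1, 59684961 to 59711510), a scaffold protein of the particle, was at 60.3, 58.4 and 58.8 CPM with DMSO and at 81.8, 88.8 and 85.0 CPM with NIBR-LTSi. All treated libraries were far above the controls, and the log2 fold change was 0.53 ± 0.05 (adjusted p = 3.34e-06). Its paralogue Nop56 rose from 46.7 ± 3.0 to 64.9 ± 6.8 CPM, with NIBR-LTSi replicate 1 (57.0 CPM) the lowest of the treated libraries. Fbl, the methyltransferase fibrillarin, rose 1.354-fold, and Rrp9, a protein specific to the U3 particle, 1.27-fold.

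The box H/ACA snoRNPs convert uridines to pseudouridine and share proteins with telomerase. Gar1 (chromosome 3, 129824912 to 129831407) had the largest rise of the 42 genes. Its 3 DMSO libraries were at 11.8, 10.7 and 9.73 CPM and its 3 NIBR-LTSi libraries at 17.6, 18.4 and 17.3 CPM, a log2 fold change of 0.72 ± 0.08 (adjusted p = 3.24e-05). The pseudouridine synthase gene Dkc1 rose 1.30-fold, from 30.1 ± 1.5 to 38.9 ± 1.6 CPM, and Nhp2 1.28-fold, from 29.8 ± 1.0 to 38.0 ± 0.3 CPM. The ratio of Gar1 to Dkc1 CPM was 0.359 ± 0.052 with DMSO and 0.456 ± 0.034 with NIBR-LTSi, with no overlap of libraries. The two-sided exact permutation test gave p = 0.1 (adjusted p = 0.2). That is the smallest p that 3 against 3 allows, so it could not decide. The remaining core gene of the particle, Nop10, rose 1.152-fold (adjusted p = 0.0190), and Naf1, which acts in H/ACA particle assembly, rose 1.63-fold from 8.56 ± 1.12 to 13.9 ± 0.7 CPM. Nop10 was named after its value was seen.

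Ncl and Npm1 had the highest levels of the 42 genes. Ncl (nucleolin; chromosome 1, 86344719 to 86359455), which binds ribosomal RNA and chromatin, had the highest CPM and the smallest p. It was at 450, 434 and 462 CPM with DMSO and at 642, 628 and 613 CPM with NIBR-LTSi, a log2 fold change of 0.48 ± 0.04 (adjusted p = 8.15e-07). Npm1 (nucleophosmin), a histone and ribosome chaperone, was at 286, 294 and 288 CPM with DMSO and at 398, 371 and 372 CPM with NIBR-LTSi (1.31-fold, adjusted p = 7.65e-06). Neither gene had any overlap between groups. Nolc1, a snoRNP chaperone, rose 1.38-fold. Without Ncl and Npm1, the summed level of the other 40 genes still went from 1256 ± 12 to 1605 ± 7 CPM. With them it went from 1993 ± 22 to 2613 ± 24 CPM, so they supplied a large part of the rise but not all of it.

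Per length, the 42 genes covered a wide range. Npm1 stood highest, at 109 CPM per kilobase with DMSO and 143 with NIBR-LTSi, followed by Ncl at 44.0 and 61.6. Nhp2 (26.0), Bop1 (23.5), Ddx21 (22.9), Pes1 (21.6) and Fbl (19.8 CPM per kilobase with DMSO) came next. The long genes Polr1a (1.78), Utp20 (1.66), Rrp1b (1.254) and Wdr12 (0.970 CPM per kilobase with DMSO) were lowest. The order hardly moved with treatment, with a Spearman rho of 0.98 across the 42 genes between the groups' levels per length. Genes with a low level per length in DMSO had larger log2 fold changes (rho = -0.48). The DMSO level enters both of these values, which by itself can make rho negative. Gene width also went with the log2 fold change (rho = 0.34). These rho values are descriptions across genes of the same libraries, which are not independent replicates.

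Of the 9 genes of the small-subunit processome, all rose, from 1.14-fold to 1.605-fold. Utp20, a long scaffold protein, rose most, from 15.5, 15.2 and 20.03 CPM to 28.6, 25.1 and 27.8 CPM. The control libraries were uneven, with DMSO replicate 3 nearest to the treated ones, but the groups did not overlap (log2 fold change 0.68 ± 0.10, adjusted p = 3.95e-04). Heatr1, Wdr43, Wdr75, Utp4 and Utp15 belong to the subcomplex that links processing to the transcription of ribosomal DNA. Heatr1 (chromosome 13, 12395375 to 12438893) was at 21.5, 21.6 and 22.7 CPM with DMSO and at 31.6, 30.1 and 29.9 CPM with NIBR-LTSi, with tight libraries in both groups (log2 fold change 0.48 ± 0.06, adjusted p = 4.89e-05). Wdr75 was at 19.0, 16.2 and 18.5 CPM with DMSO and at 25.2, 26.1 and 27.5 CPM with NIBR-LTSi (1.47-fold, adjusted p = 8.59e-05). Utp15 rose 1.29-fold and Wdr43 1.27-fold. Utp4, the gene of cirhin, had the smallest rise that was called, 1.14-fold from 24.2 ± 1.0 to 27.4 ± 1.1 CPM (adjusted p = 0.0314; 0.167 in DESeq2, 0.136 with DMSO replicate 1 left out, 0.113 without NIBR-LTSi replicate 2 and 0.126 without NIBR-LTSi replicate 3). Nop14 (1.31-fold) and Noc4l (1.42-fold), whose yeast counterparts bind each other in this particle, rose as well, and Utp18 rose 1.17-fold (adjusted p = 0.0133; 0.0727 in DESeq2, 0.0586 with DMSO replicate 1 left out and 0.0510 without NIBR-LTSi replicate 3).

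The RNA helicase genes were also higher. Ddx21, which acts on snoRNAs and on polymerase I transcription, was at 114, 119 and 123 CPM with DMSO and at 152, 148 and 150 CPM with NIBR-LTSi, with every treated library above 147 CPM (log2 fold change 0.34 ± 0.04, adjusted p = 5.67e-05). Ddx10 rose 1.19-fold. The 5 genes of late small-subunit maturation rose by 1.14-fold to 1.28-fold. Tsr1, a GTPase-like factor on late particles, was at 31.9, 31.6 and 32.5 CPM with DMSO and at 38.9, 39.5 and 39.96 CPM with NIBR-LTSi, a log2 fold change of 0.30 ± 0.05 (adjusted p = 5.37e-04). Nob1, the endonuclease that makes the last cut in the small-subunit RNA, rose 1.23-fold, Rrp12, an export factor, 1.28-fold, Bysl 1.246-fold and Ltv1 1.14-fold (adjusted p = 0.00815; 0.0583 in DESeq2).

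The genes of the large subunit were the least uniform and held all 3 genes that were not called. Pes1, Bop1 and Wdr12 encode the PeBoW complex, which is needed for maturation of large-subunit RNA. Wdr12 (chromosome 1, 60071361 to 60098500) was at 11.1, 11.6 and 12.1 CPM with DMSO and at 18.7, 15.5 and 17.6 CPM with NIBR-LTSi, without overlap (log2 fold change 0.57 ± 0.09, adjusted p = 2.45e-04). Pes1 rose less, from 65.3 ± 1.6 to 79.7 ± 2.1 CPM, or 1.22-fold. Bop1 (chromosome 15, 76452988 to 76477249) was at 71.2, 68.5 and 69.1 CPM with DMSO and at 70.6, 71.7 and 67.6 CPM with NIBR-LTSi. Its libraries overlapped and the log2 fold change was 0.01 ± 0.04 (adjusted p = 0.930), with a sign that turned with DESeq2 size factors, in DESeq2 and when DMSO replicate 2, NIBR-LTSi replicate 1 or NIBR-LTSi replicate 2 was left out. The ratio of Pes1 to Bop1 CPM was 0.938 ± 0.036 with DMSO and 1.14 ± 0.01 with NIBR-LTSi, and that of Wdr12 to Bop1 was 0.167 ± 0.009 and 0.247 ± 0.027. Libraries did not overlap in either ratio. The exact permutation test gave p = 0.1 (adjusted p = 0.2) for each. That is the smallest p it allows with 3 libraries in each group, so it could not decide.

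In this way, 10 chosen pairs of genes within a complex were compared, with Rrp9 and the small-subunit processome genes in none. The pairs were 3 in PeBoW, 3 in the H/ACA particle, 3 among Nop58, Nop56 and Fbl, and Polr1a with Polr1b. In 5 of them the groups' ratios did not overlap, namely the 3 PeBoW pairs and the pairs of Gar1 with Dkc1 and with Nhp2. Each of these had p = 0.1 and an adjusted p of 0.2 by the exact permutation test, a design that cannot reach 0.05. The ratios of Dkc1 to Nhp2, of the box C/D pairs and of Polr1a to Polr1b overlapped between the groups (p from 0.3 to 0.8, exact permutation test).

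Of the other 11 large-subunit genes, 9 rose. Rrs1 (chromosome 1, 9545408 to 9547455), whose yeast counterpart brings a small ribosomal RNA into the large subunit, was at 13.98, 13.2 and 13.7 CPM with DMSO and at 20.4, 21.2 and 19.96 CPM with NIBR-LTSi, a log2 fold change of 0.59 ± 0.07 (adjusted p = 2.86e-05). Rrp1b was at 8.49, 9.11 and 11.4 CPM with DMSO and at 14.1, 15.9 and 15.3 CPM with NIBR-LTSi and DMSO replicate 3 was the highest control, without overlap (1.57-fold, adjusted p = 4.75e-04). Nip7 (1.44-fold), Mrto4 (1.39-fold) and Gnl3 (1.36-fold), which encodes the GTPase nucleostemin, followed. Mrto4 has the annotated processed pseudogenes Mrto4-ps1 and Mrto4-ps2, so its count is uncertain. Only pseudogenes named after a member were searched for. The methyltransferase genes Ftsj3 and Nop2 rose 1.31-fold and 1.151-fold (Nop2 adjusted p = 0.00818; 0.0505 in DESeq2), Noc2l rose 1.27-fold and Nop16 1.21-fold (adjusted p = 0.0132; 0.0678 in DESeq2 and 0.0573 without NIBR-LTSi replicate 2). The GTPase gene Gnl2 was at 43.4, 39.9 and 42.2 CPM with DMSO and at 43.9, 46.2 and 42.1 CPM with NIBR-LTSi (adjusted p = 0.344). Wdr74 was at 23.0, 20.8 and 19.2 CPM with DMSO and at 23.3, 24.2 and 22.9 CPM with NIBR-LTSi, where only DMSO replicate 1 reached the treated range. Its log2 fold change was 0.16 ± 0.07 (adjusted p = 0.111; 0.0406 with DMSO replicate 1 left out and 0.0313 with the width adjustment, which removes each library's trend on gene width).

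**Figure D2:**
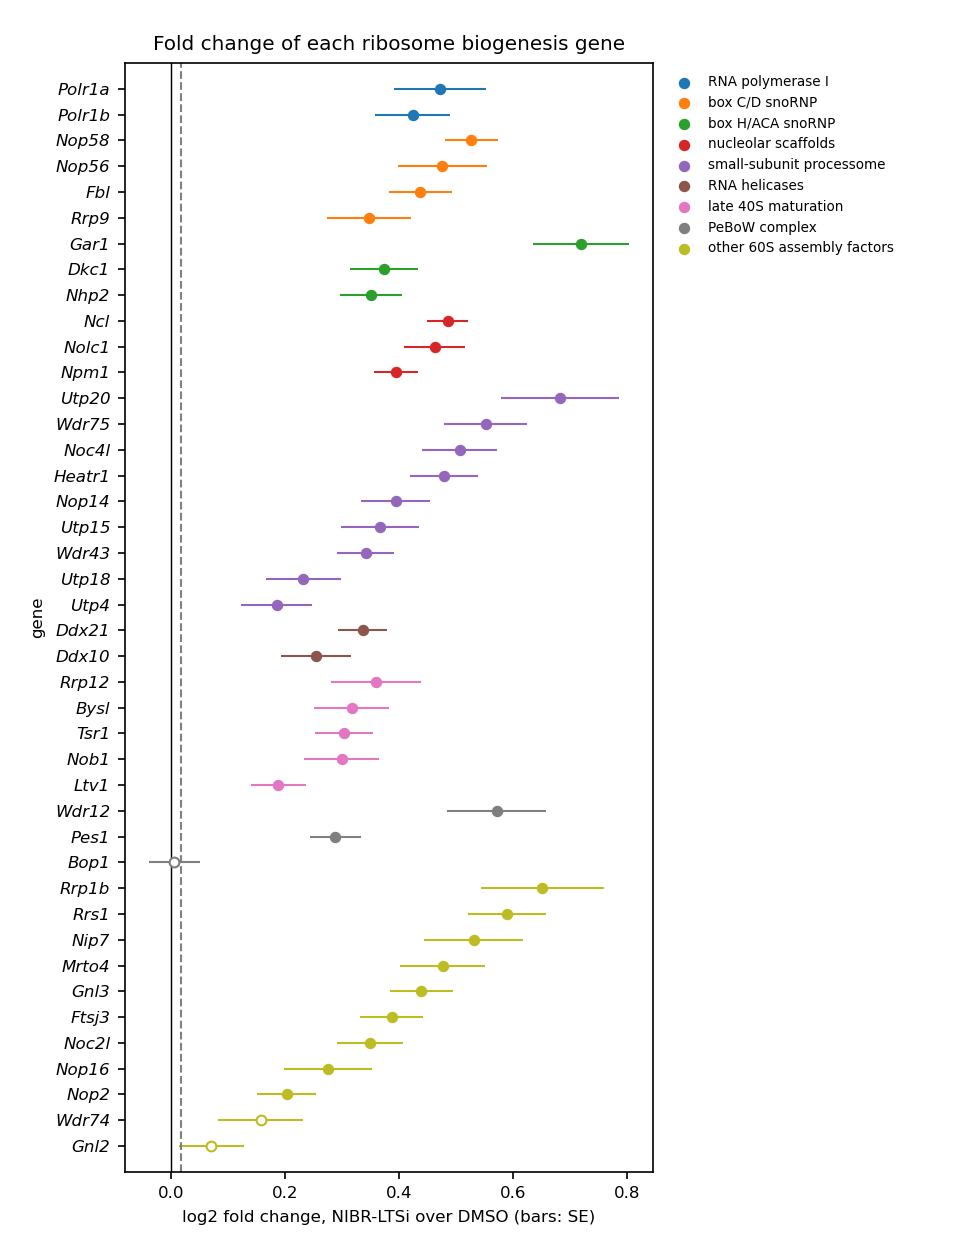
Log2 fold change (NIBR-LTSi over DMSO, x axis) with its SE for each of the 42 genes, coloured by role, with open points for genes not called and a dashed line at the median of all tested genes (0.02). Bop1, Gnl2 and Wdr74 are the open points, and Gar1 lies farthest right at 0.72.

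The rise was wider than the 42 genes but did not cover every kind of gene around the ribosome. In a list of 120 other ribosome biogenesis factors, 68 were higher (56.7%), 5 lower and 47 not called. The shares of all tested genes were 22.8% higher and 19.2% lower. The median log2 fold change of the list was 0.23. The number lower was 2 when DMSO replicate 1 or NIBR-LTSi replicate 3 was left out or with library totals only, and 3 when replicate 2 of either group was left out. The largest called rises were Lyar, a nucleolar zinc finger protein, from 21.5 ± 0.8 to 37.0 ± 0.4 CPM (1.71-fold, adjusted p = 6.81e-07), the small-subunit processome gene Krr1 (1.67-fold) and Naf1. Krr1 overlaps Glipr1 (2.59 CPM with DMSO, 38.5 after treatment), so its value is uncertain. The largest falls were those of Eif6, which keeps the subunits apart and went down from 195 ± 8 CPM to a treated mean of 163 ± 9 CPM (adjusted p = 0.00104), of the kinase gene Riok3 (log2 fold change -0.19), and of Efl1, which releases Eif6 (-0.15). The other 2 genes called lower, named after their values were seen, were Ddx49 (-0.14, adjusted p = 0.0262) and Nop53 (-0.11, adjusted p = 0.0424). The Efl1 call was lost with library totals only (adjusted p = 0.0787) and on leaving out DMSO replicate 1 (0.0837), NIBR-LTSi replicate 2 (0.0592) or NIBR-LTSi replicate 3 (0.0544).

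Genes of the ribosome's own proteins moved far less. Of 83 tested cytosolic ribosomal protein genes, 7 were higher (8.43%), 1 lower and 75 not called. Across all tested genes, 22.8% were higher and 19.2% lower. The ribosomal protein genes had a median log2 fold change of 0.04. Their summed level was 25161 to 27599 CPM with DMSO and 25347 to 28210 CPM with NIBR-LTSi. Their count of higher genes depended on single libraries and on the processing: it was 0 without NIBR-LTSi replicate 2, 2 when DMSO replicate 3 or NIBR-LTSi replicate 1 was left out, 4 with DMSO replicate 1 left out, 13 without NIBR-LTSi replicate 3, 14 with library totals only and 24 after the width adjustment. The named members were Rps4l (1.245-fold), Rpl17 (1.18-fold) and Rpl22l1 (1.16-fold) among the higher genes, all with calls lost in at least 1 omission, and Fau, the only member lower, by 0.19 on the log2 scale (adjusted p = 0.0153; up to 0.0827 without 1 library). Many of these genes have near-identical pseudogenes, so their counts are uncertain. A further list held Gas5, Zfas1 and Snhg genes, whose introns carry snoRNAs. Of its 13 tested genes, 1 (7.69%) rose (Snhg18, 1.62-fold from 2.26 ± 0.25 CPM) and 12 were not called. In this list, 2 were higher without NIBR-LTSi replicate 1, with library totals only and after the width adjustment, and 1 was lower without DMSO replicate 3. The 7 snoRNA hosts among the 42 genes were not in this list, and all 7 rose.

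**Figure D3:**
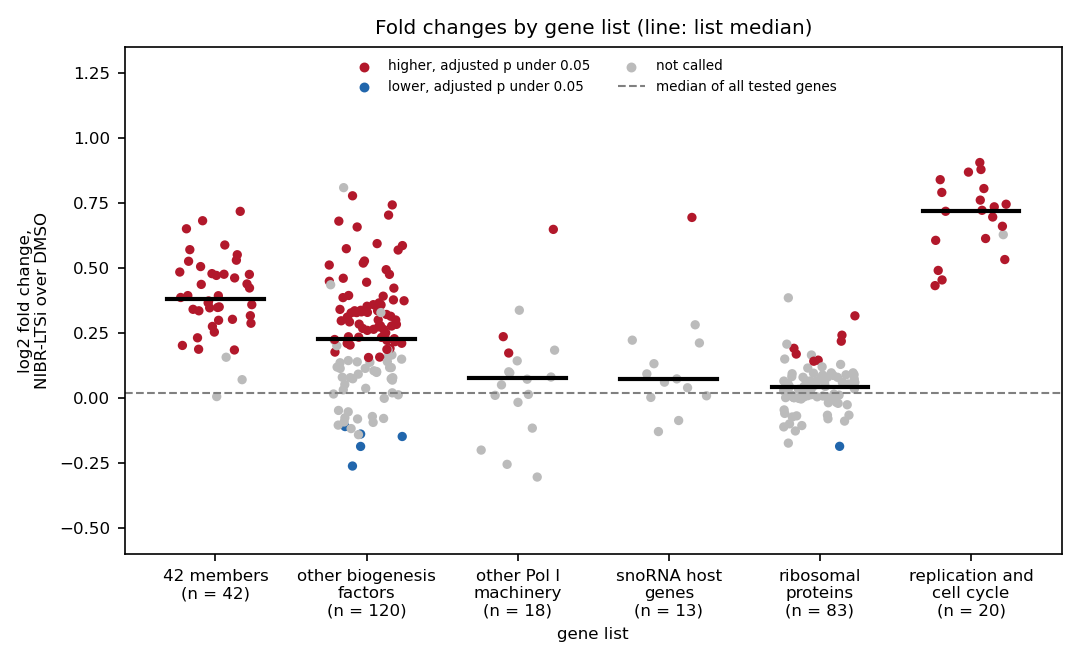
Log2 fold change of each tested gene (points) in 6 gene lists, with the list median as a bar and the median of all tested genes as a dashed line. The 42 genes centre on 0.38, the other biogenesis factors on 0.23, the ribosomal proteins on 0.04 and the replication and cell-cycle genes on 0.72.

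Other genes moved with the 42. Of 20 replication and cell-cycle genes, 19 were higher (95%) and 0 lower, beside 22.8% and 19.2% of all tested genes. The list median was 1.65-fold, and the list's summed level was 741 to 764 CPM in the DMSO libraries and 1177 to 1245 CPM in the NIBR-LTSi libraries. The replicative helicase genes Mcm6 (1.87-fold), Mcm5 (1.84-fold) and Mcm3 (1.83-fold) rose most. The summed level of 8 enterocyte markers was 35889 to 36878 CPM with DMSO and 30601 to 33139 CPM with NIBR-LTSi, with 4 of the 8 higher and 3 lower. Of 6 crypt stem cell markers, Olfm4 (0.511-fold, adjusted p = 8.63e-06) and Lgr5 (0.618-fold, adjusted p = 0.0170) fell, Smoc2 rose (1.148-fold), Axin2 and Rgmb were not called and Ascl2 was below the filter. Their summed level, 172 to 183 CPM with DMSO and 179 to 192 after treatment, was mostly Smoc2 (127 and 146 CPM). Of 7 goblet markers, Clca1 (234 to 792 CPM, 3.39-fold) and Zg16 (1.33-fold) rose, Spink4 fell (0.604-fold) and 4 were not called, with a summed level of 2865 to 3225 CPM in controls and 3242 to 3568 after treatment. Of 6 Paneth markers 2 were higher and 3 lower (summed level 658 to 723 and 530 to 590 CPM), and of 7 enteroendocrine markers 1 was higher and 3 lower (425 to 442 and 332 to 344 CPM). The part of cell cycle and cell composition in the rise of the biogenesis genes was not tested.

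**Figure D4:**
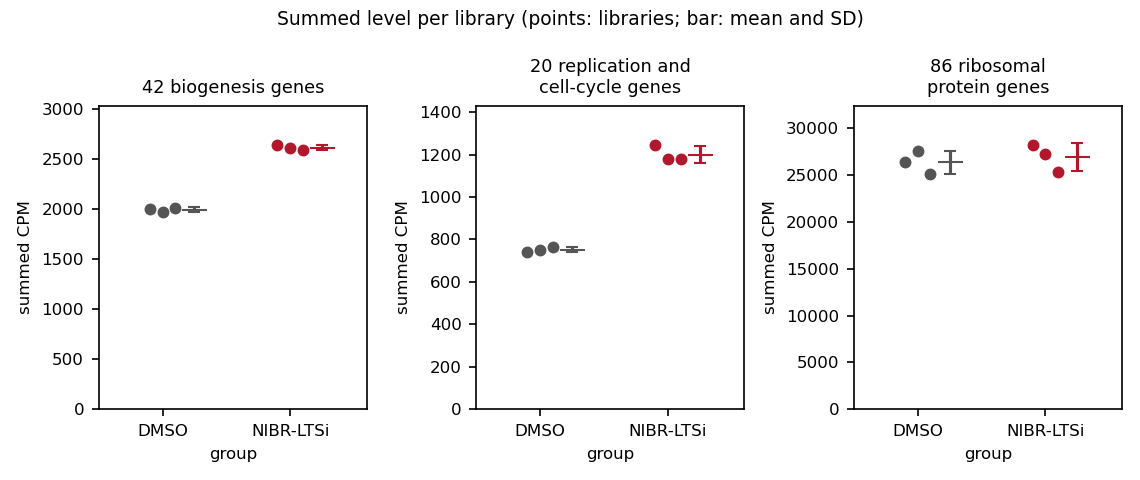
Summed TMM-normalised CPM in each library (points) with the mean and SD of each group for the 42 biogenesis genes, 20 replication and cell-cycle genes and 86 ribosomal protein genes, each axis starting at 0. The first pair of panels shows separate groups (1993 ± 22 against 2613 ± 24 CPM for the 42 genes), and the ribosomal protein panel shows overlapping libraries.

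MYC itself is the best known activator of these genes. Myc (chromosome 15, 61985341 to 61990361) was at 30.3, 29.3 and 27.4 CPM with DMSO and at 37.8, 41.5 and 41.1 CPM with NIBR-LTSi, without overlap (1.38-fold, adjusted p = 8.39e-05). Its relative Mycn rose 2.22-fold from a low 1.12 ± 0.23 CPM. In the list of 13 MYC network genes these were the only 2 that rose (15.4%), 3 fell and 8 were not called. Of all tested genes, 22.8% were higher and 19.2% lower. Mxi1 fell from 63.4 ± 0.8 CPM in controls to 46.6 ± 2.2 after treatment (adjusted p = 2.26e-05). Mnt fell from 61.0 ± 4.2 to 50.5 ± 4.3 CPM (adjusted p = 0.00873, or 0.0509 without DMSO replicate 1). The products of both compete with MYC for its partner MAX. Mlx also fell (log2 fold change -0.15). Mxd1 (0.983-fold), Mxd3 (1.18-fold), Mxd4 (0.932-fold) and Mga (1.24-fold) were not called. Max itself, at 63.7 CPM in controls and 59.2 after treatment, was not called (adjusted p = 0.0835). Max, Mxd1, Mxd3, Mxd4 and Mga were chosen later, outside the rule for called genes. The part of MYC in the rise of the 42 genes was not tested.

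Promoter sequence was examined because 39 of the 42 genes rose and MYC with MAX binds the E-box CACGTG. RefSeq promoters of assembly GRCm38.p6, the assembly of mm10, run from 250 bases before to 50 bases after each annotated start, and 36 of the 42 genes had at least 1. The E-box, which reads the same on both strands, was in 8 of the 36 (22.2%), against 8.09% of 27025 genes with a promoter and 11.9% of the 10052 tested genes among them. The windows below show those 8 with the E-box in capitals.
Utp20, chr10:88826765-88826794, minus strand: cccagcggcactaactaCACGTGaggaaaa
Wdr43, chr17:71616215-71616244, plus strand: gcctgcgcccgggcgaaCACGTGgctgccg
Tsr1, chr11:74898087-74898116, plus strand: agagttcacttggtgcaCACGTGgactgca
Pes1, chr11:3963960-3963989, plus strand: cagggccctaggcagggCACGTGcgggagg
Utp18, chr11:93885774-93885803, minus strand: agcgcgcgagcgccggtCACGTGgcttgcg
Nop2, chr6:125131806-125131835, plus strand: ggggcgtgtccctggatCACGTGtgttccg
Ltv1, chr10:13193097-13193126, minus strand: ccctagccctgtggaccCACGTGtggagct
Utp4, chr8:106893638-106893667, plus strand: tcgagtgcgcaagcgcgCACGTGgggccgg
In Utp20, Wdr43, Tsr1, Pes1, Ltv1 and Utp4 the E-box began 38, 18, 25, 3, 29 and 16 bases into the transcript, counting the start as the first base, and in Utp18 and Nop2 it began 20 and 60 bases before the start. The 8 genes with an E-box had a median of 1.198-fold, from 1.14-fold to 1.605-fold in Utp20, the largest rise of the 42 after Gar1. The 28 genes with a promoter but no E-box had a median of 1.349-fold, from 1.12-fold to 1.65-fold. This is a description with no test.

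The other motifs were counted on both strands and also describe letters in these windows only. The ETS-family motif CCGGAAG was in 13 of 36 genes (36.1%; 20.3% of tested genes), the GC box GGGCGG in 28 (77.8%; 67.5%), the CCAAT box CCAAT in 13 (36.1%; 43.3%) and the TATA box TATAAA in 2 (5.56%; 9.13%). GGAATG, a core bound by the TEAD partners of YAP, was in 1 gene (2.78%; 14.5%). The members' promoters had a median GC content of 59.7%, close to the 60.3% of tested genes and above the 52.7% of all promoters. The 250 bases upstream of the start are shown for Gar1, the gene that rose most and has no E-box, and for Nop2 and Utp18, the genes with an E-box upstream of the start. Capitals mark the E-box, the ETS-family motif, the GC box and the CCAAT box, on either strand.
Gar1, chr3:129831397-129831646, minus strand: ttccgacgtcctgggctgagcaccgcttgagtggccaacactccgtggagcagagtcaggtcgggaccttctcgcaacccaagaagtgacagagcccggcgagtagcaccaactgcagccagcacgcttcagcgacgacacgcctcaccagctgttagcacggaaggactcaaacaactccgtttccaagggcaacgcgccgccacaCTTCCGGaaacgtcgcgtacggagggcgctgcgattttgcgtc
Nop2, chr6:125131633-125131882, plus strand: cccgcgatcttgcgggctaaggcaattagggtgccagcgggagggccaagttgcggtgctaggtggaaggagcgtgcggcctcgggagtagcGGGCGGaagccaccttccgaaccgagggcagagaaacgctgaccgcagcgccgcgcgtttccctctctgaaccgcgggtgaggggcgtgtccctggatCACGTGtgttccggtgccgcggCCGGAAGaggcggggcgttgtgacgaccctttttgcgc
Utp18, chr11:93885767-93886016, minus strand: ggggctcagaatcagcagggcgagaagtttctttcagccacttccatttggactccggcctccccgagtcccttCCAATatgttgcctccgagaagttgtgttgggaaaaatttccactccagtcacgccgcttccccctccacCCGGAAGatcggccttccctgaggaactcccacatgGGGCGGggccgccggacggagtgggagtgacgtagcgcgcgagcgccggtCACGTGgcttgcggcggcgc
Gar1 held a single match, to the ETS-family motif, near its start, while Nop2 and Utp18 held the E-box with ETS-family and GC-box matches, and Utp18 also a CCAAT box.

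Some of the 42 genes are hosts of snoRNA genes. In the GENCODE annotation of the same assembly, 7 of them (16.7%) held snoRNA genes within their bounds on the same strand, 21 in all, against 1.87% of 12331 tested genes found there by symbol. Nop56 held 5 snoRNAs, among them Snord57 and Snord110, Nop58 held 4, Ncl, Wdr43 and Gnl3 held 3 each, Tsr1 held 2 and Dkc1 held 1. The host genes rose by 1.23-fold to 1.44-fold with a median of 1.36-fold, and the other 35 had a median of 1.29-fold. The snoRNAs themselves were not measured, since the libraries were selected for messenger RNA.

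Reads that fall where genes overlap could not be assigned with certainty, because no source used here gives the strand setting of the counting. Exons of 14 of the 42 genes shared bases with a protein-coding gene on the opposite strand, and 12 of these 14 were among the genes that rose. The shared stretch was longest in Tsr1, where 1240 bases lie within exons of Srr, a gene that was lower (70.0 to 52.0 CPM). It was 598 bases in Noc2l (Samd11, not tested), 361 in Bysl (Ccnd3, not called) and 50 in Bop1 (Mroh1, not called). In 2 genes the partner was called higher: Dkc1 shares 45 bases with Mpp1, which stood far above it (346 CPM in controls, 501 after treatment, 1.45-fold), and Gnl3 shares 15 bases with Pbrm1 (1.146-fold). In Heatr1 (155 bases, Lgals8), Nhp2 (44 bases, Rmnd5b) and Rrp9 (20 bases, Parp3) the partner was lower, as in Tsr1. Of the 28 genes without such an overlap, 27 rose.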

How the data were processed

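RNA was sequenced from 6 organoid samples; per the labels' protocols, 200 ng of total RNA entered a stranded messenger RNA kit. The authors deposited raw read counts per Entrez gene with a gene width; per the submitters' processing notes the build was mm10 and edgeR was used. No source used here names the aligner, counting tool or strand setting. Counts were tested with edgeR 4.0.16 (R 4.3.3): TMM, filterByExpr (minimum count 10, leaving 12592 of 24594 genes), robust quasi-likelihood fit, group as the only term. The SE was calculated back from the F statistic. The procedure was checked on simulated counts. Named genes were, per role, the gene with the smallest p, the 6 largest rises, every called fall, the levels per length at both ends, and up to 3 rises and 3 falls per other list; others are said to be chosen later. Gnl2, Bop1 and Wdr74 were given in full because they were not called. The members and lists were chosen with earlier results of these data known. Of the polymerase I list, Polr1g had no row under its symbol. Whether replicates came from separate cultures is not stated; p-values thus reflect only how these samples differ, which may be technical. No libraries agreed within sampling noise (chi-square per degree of freedom 4.56 to 11.8). Positions and promoters are from RefSeq GRCm38.p6. The alternatives were other normalisations and filters, DESeq2 1.42.0, limma-voom (limma 3.58.1), a replicate block, offsets removing each library's trend on gene width, and omission of each library. An immune marker of the list is not reported here.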

Additional observations from a re-analysis of the deposited data

How the results depend on the processing

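Over 15 alternatives, 35 of the 42 genes kept their direction and their side of the threshold in each. The number higher was 34 in DESeq2, 40 after the width adjustment and 37 to 39 without 1 library, and none was lower in any. Their median log2 fold change was 0.38; it was 0.36 with DESeq2 size factors, in DESeq2 and after the width adjustment, 0.43 with library totals only, and 0.37 to 0.41 without 1 library. For the 120 other factors the median (0.23) was 0.21 with DESeq2 size factors, in DESeq2 and after the width adjustment, 0.27 with library totals only, and 0.21 to 0.23 without 1 library; the number lower (5) was 2 with library totals only and 2 to 5 without 1 library. The log2 fold change of Bop1 turned to -0.0118 with DESeq2 size factors and -0.0119 in DESeq2, and ranged from -0.0228 to 0.0231 without 1 library. The cause of these shifts was not tested. Library totals only moved the median of all tested genes from 0.02 to 0.06. Among secondary lists, counts added after seeing the data moved most for ribosomal proteins, 0 to 24 higher and 0 to 3 lower; polymerase I machinery had 1 higher in DESeq2. Whether the replicate numbers pair the samples could not be decided. Deviations of same-numbered libraries correlated at 0.05, -0.30 and 0.56, and those of DMSO replicate 2 with NIBR-LTSi replicate 1 at 0.53. With the replicate block 39 of the 42 genes were higher and none lower. The biological coefficient of variation, edgeR's common estimate over all tested genes that leaves out counting noise, was 6.02%.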
